A study of Mus musculus with 9 samples.

Results

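Collagen genes were taken as the rows of the count table whose symbol is Col, a number, the letter a and a second number with nothing more, and 44 of 55276 gene symbols met this rule. They were sorted by the form their proteins take into 11 fibrillar, 6 basement membrane, 3 network, 9 FACIT (fibril-associated collagens with interrupted triple helices), 6 beaded filament, 1 anchoring fibril, 4 transmembrane and 2 multiplexin genes and 2 others. The cells were PPTR cells, a mouse intrahepatic cholangiocarcinoma (iCCA, bile duct cancer of the liver) line derived from liver cancer organoids of the Prom1CreERT2; Ptenflx/flx; Tp53flx/flx; Rosa-ZsGreen model, and every group shared this background and the same serum-containing medium. Prom1 drives the Cre recombinase of that model. Control cells (Vcam1ctrl, given as WT in the sample labels) were compared with Vcam1KO1 and Vcam1KO2, each of which is 1 single-cell clone made with a CRISPR/Cas9 guide in exon 2 of Vcam1, and no treatment, time point or animal age applies to these cultures. Each group had 3 mRNA libraries, 9 in all. The methods give them as different passages of the same cells. The stated purpose was to find genes downstream of Vcam1, a cell surface adhesion molecule.

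Collagens are secreted or membrane-bound trimers whose chains wind into a triple helix. Fibrillar collagens form the load-bearing fibres of scar and tumor stroma, basement membrane collagens form the sheet under epithelia, FACIT collagens decorate fibres, and beaded filament and network collagens form fine meshworks. In liver, fibre-forming collagen is known chiefly as a product of stellate cells and myofibroblasts, while epithelial cells contribute to the basement membrane. A trimer needs its chains in set proportions, so the levels of partner chains are given together below.

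The libraries held 53415907 to 125223073 counts, and collagen took 0.398% to 0.546% of the counts in Vcam1ctrl, 2.38% to 2.72% in Vcam1KO1 and 1.66% to 1.70% in Vcam1KO2. Levels are in CPM, counts scaled to 1000000 per library after TMM, a method that adjusts each library for its composition. Vcam1 mRNA itself stood at 248, 221 and 329 CPM in Vcam1ctrl, 98.8, 92.4 and 128 CPM in Vcam1KO1 and 119, 99.4 and 83.0 CPM in Vcam1KO2, lower in all 6 clone libraries (log2 fold change -1.36, SE 0.17, adjusted p = 0.00021). Counts over a whole gene do not read the edit itself. Of 8 epithelial markers, 7 were lower in the clones, and the 8 summed to 11423 to 12130 CPM in control libraries and 108 to 380 CPM in clone libraries. Nearly all of the clone sum was Sox9, at 107 to 378 CPM, the 1 marker that did not pass (log2 fold change 0.67, adjusted p = 0.15). Krt19, a keratin that marks bile duct cells, was at or below 0.226 CPM in every clone library against 2129 CPM or more in control. Of 13 fibroblast and stellate markers, 9 were tested. In the clones together 5 were higher and 1 lower, where 21.7% of all tested genes were higher and 21.2% lower. The 5 include Tagln, at most 0.0759 CPM in control libraries. It had enough counts to be tested through the clones alone, which favoured its call. The 13 summed to 103 to 187 CPM in Vcam1ctrl, 2791 to 3972 CPM in Vcam1KO1 and 1017 to 2190 CPM in Vcam1KO2, whereas the stellate marker Lrat did not pass 3 counts in any library. Postn held most of this sum in the clones, at 2025 to 2926 CPM in Vcam1KO1 and 550 to 1580 CPM in Vcam1KO2. The fibroblast gene Pdpn was lower in both clones (log2 fold change -3.67, adjusted p = 0.00064, in Vcam1KO1 and -9.37, adjusted p = 0.00011, in Vcam1KO2). Dcn was lower in Vcam1KO1 (-4.11, adjusted p = 0.00022) and did not pass in Vcam1KO2 (0.30, adjusted p = 0.65). Marker sums of endothelial cells were at most 2.504 CPM and those of blood cells at most 20.8 CPM in any library. Sums of hepatocyte markers were 38.4 to 162 CPM in control and 0.222 to 3.05 CPM in clone libraries. Those of bone were 28.7 to 32.7 CPM in control and 48.6 to 90.4 CPM in clone libraries. Most of the bone sum was Runx2, at 21.45 to 22.99 CPM in control and 45.18 to 88.3 CPM in clone libraries. Alpl, another bone marker, was lower in both clones (log2 fold change -6.45, adjusted p = 1.4e-06, in Vcam1KO1 and -1.82, adjusted p = 0.00085, in Vcam1KO2). Ibsp was higher in Vcam1KO1 alone, at 1.68 CPM or less. It had enough counts to be tested through Vcam1KO1 alone, so it had to differ between groups. The part of these marker shifts in the collagen results was not tested, and in bulk RNA a change in the share of cells of a type cannot be told apart from a change in RNA per cell. Replicate 3 of Vcam1KO1 stood apart from the other libraries of its group in many collagens, and values without it are given where they change a call.

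Collagen mRNA was higher in both clones. The 44 genes summed to 4844 ± 694 CPM (SD, n = 3) in Vcam1ctrl, 25153 ± 1102 CPM in Vcam1KO1 and 16973 ± 432 CPM in Vcam1KO2, which is 5.19 and 3.5 times the control mean. The gain was uneven among members, because some of the most abundant collagens of control cells, such as Col18a1, stayed near their level and others, such as Col15a1, were almost gone.

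**Figure D1:**
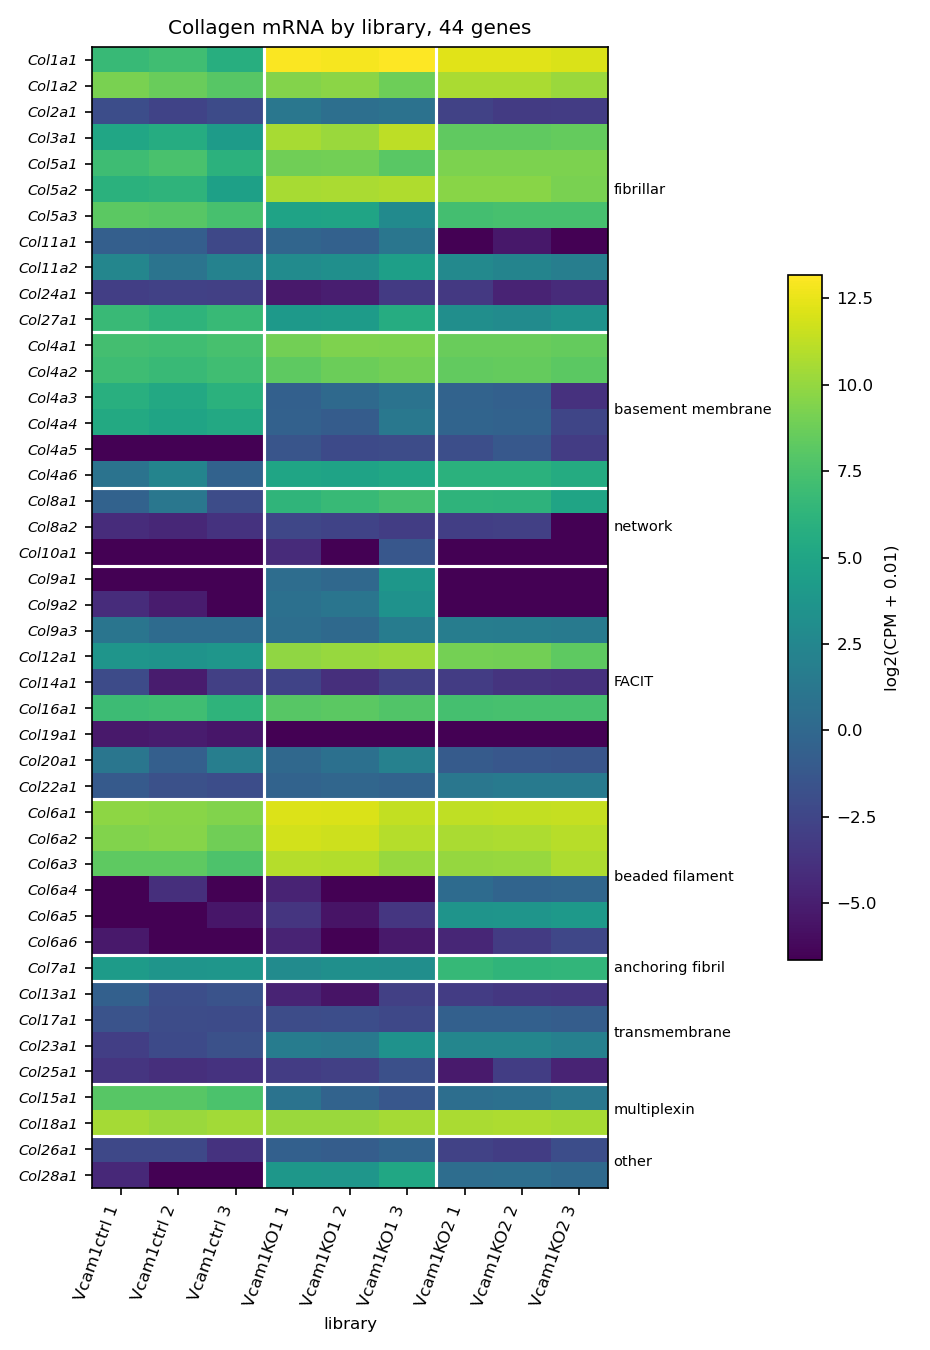
Level of the 44 collagen genes (rows, grouped by class) in the 9 libraries (columns), as log2 of CPM plus 0.01. Col1a1, Col3a1, Col5a2, Col8a1 and Col12a1 are brighter in all 6 clone libraries, Col15a1, Col4a3 and Col4a4 are darker, and Col6a5 is bright in Vcam1KO2 alone.

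Of the 44 collagens, 37 had enough counts to be tested and 7 did not (Col24a1, Col8a2, Col10a1, Col14a1, Col19a1, Col6a6 and Col25a1). Enough counts means about 0.152 CPM or more in at least 3 libraries. Of the 37, 28 passed with libraries of all 3 groups, 4 through 2 groups and 5 through 1 group alone. The 5 were Col9a1 and Col9a2 (Vcam1KO1), Col6a4 and Col6a5 (Vcam1KO2) and Col13a1 (Vcam1ctrl), and they had to differ between groups. Of the 4, Col4a5 and Col28a1 passed through the 2 clones, and Col2a1 and Col11a1 through Vcam1ctrl and Vcam1KO1. For these 4 the filter favoured a difference from the group left out. Genes were tested with the quasi-likelihood method of edgeR, and adjusted p is by Benjamini-Hochberg over 17672 genes with a threshold of 0.05.

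With the 6 clone libraries pooled against Vcam1ctrl, 19 of the 37 tested collagens were higher and 5 lower, where 21.7% of all tested genes were higher and 21.2% lower. The higher genes include Col4a5, Col28a1 and Col6a5 and the lower genes Col13a1, whose calls the filter favoured. The median log2 fold change of the tested collagens was 1.88, against 0.07 over all genes. Every clone library lay above every control library for 17 of the 37 (45.9%) and below for 6 (16.2%), beside 21.2% and 23.0% of all tested genes. The number wholly below control was too near the share of all genes to be read as a result about collagens. In Vcam1KO1 alone 23 were higher and 7 lower (29.9% and 30.0% of all genes, median log2 fold change 1.78 against 0.02). In Vcam1KO2 alone 22 were higher and 7 lower (25.3% and 26.1% of all genes, median 1.42 against 0.00). These counts also include calls that the filter favoured. In both clones they are Col4a5 and Col28a1 (higher) and Col13a1 (lower). Col9a1 and Col9a2 (higher) add to them in Vcam1KO1, and Col6a4 and Col6a5 (higher) and Col11a1 (lower) in Vcam1KO2. Both clones were compared with the same 3 control libraries, so the calls of the clones are given side by side and not as independent repeats.

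**Figure D2:**
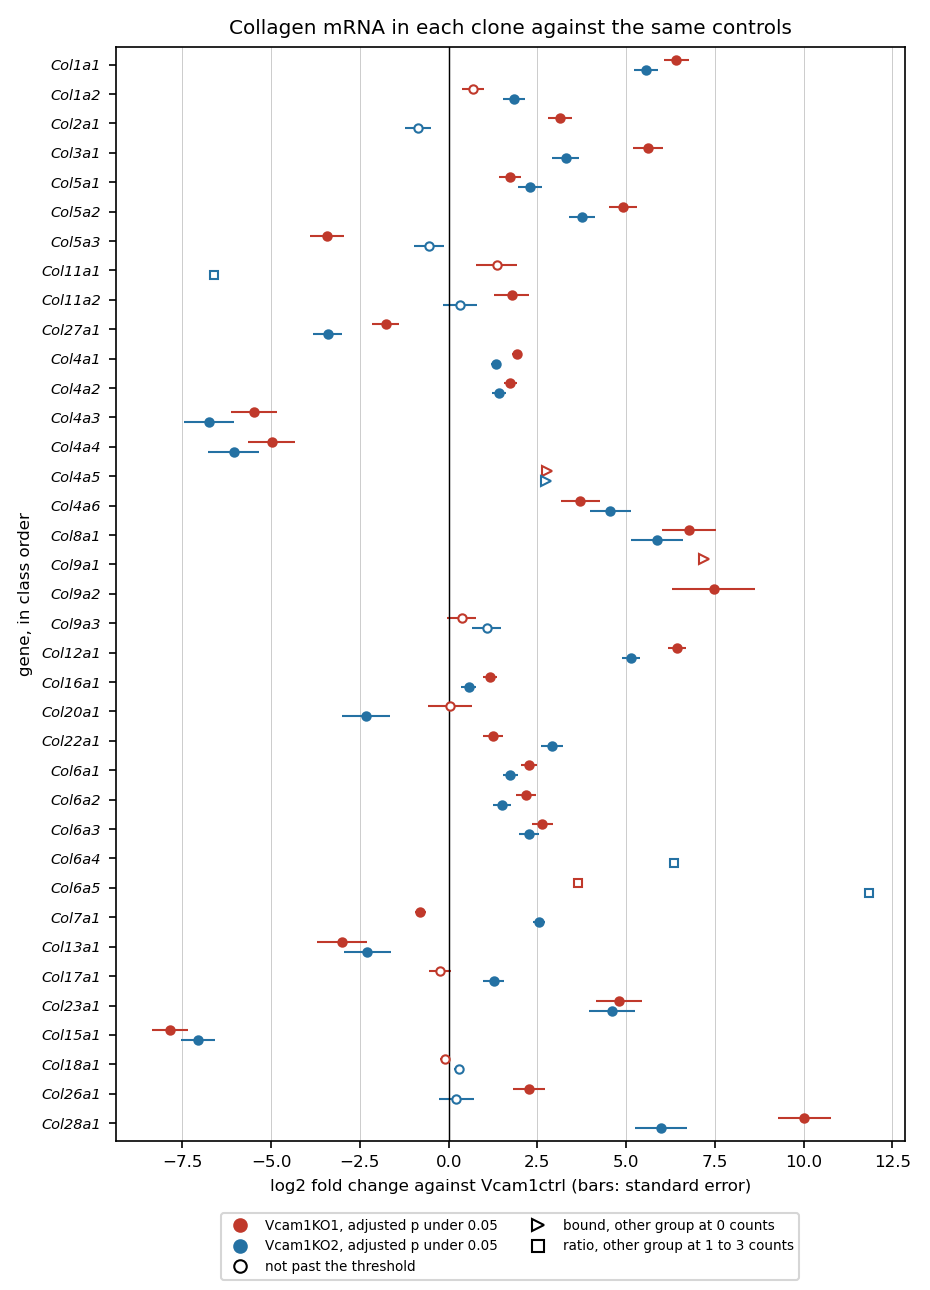
Log2 fold change against Vcam1ctrl for the tested collagens in class order, Vcam1KO1 in red and Vcam1KO2 in blue, with bars of 1 standard error. Filled circles are past the adjusted p threshold of 0.05, open circles are not, triangles are lower bounds where a group had 0 counts, and squares are ratios against 1 to 3 counts in all.

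By class, beside 21.7% of all tested genes higher and 21.2% lower, 5 of 10 tested fibrillar genes were higher and 1 lower in the pooled comparison. The basement membrane class was divided, with 4 of 6 higher and 2 lower. Of the tested FACIT genes 3 of 7 were higher, of the beaded filament genes 4 of 5, and of the network genes the 1 tested. Among the other classes, 1 of 3 tested transmembrane genes was higher and 1 lower, 1 of 2 multiplexin genes was lower and 1 of the 2 remaining genes (Col28a1) was higher. The anchoring fibril gene did not pass. In the classes with few tested members, and for the 3 of 7 FACIT genes, these counts are too small to be told from the shares of all genes. They are not read as results about a class. Among the genes called higher, Col4a5 and Col28a1 passed the filter through the clones alone, and Col6a5 through Vcam1KO2 alone. The fibrillar total went from 1061 ± 312 CPM in Vcam1ctrl to 12996 ± 1122 CPM in Vcam1KO1 and 8047 ± 776 CPM in Vcam1KO2, that is 12.3 and 7.59 times. The FACIT total was 10.6 and 4.77 times, the beaded filament total 4.92 and 3.39 times and the basement membrane total 2.78 and 2.09 times the control mean. The small network total, nearly all Col8a1, went from 1.12 ± 1.04 CPM to 112 ± 35.0 CPM in Vcam1KO1 and 59.6 ± 25.3 CPM in Vcam1KO2.

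The makeup of the collagen mRNA therefore changed. Fibrillar genes held 21.6% ± 3.7 of collagen CPM in Vcam1ctrl, 51.8% ± 5.9 in Vcam1KO1 and 47.4% ± 3.5 in Vcam1KO2 (SD, n = 3). Multiplexins went the other way, from 32.7% ± 4.5 to 4.96% ± 0.85 and 9.54% ± 0.42. The beaded filament share was 35.0% ± 2.8, 33.1% ± 8.2 and 34.0% ± 5.0, differences smaller than the spread between libraries. Basement membrane genes took 7.80% ± 1.9 of collagen CPM in Vcam1ctrl and 4.12% ± 0.87 and 4.56% ± 0.33 in the clones, a smaller share of a larger total. Per kb of transcript, the most abundant collagen was Col18a1 in Vcam1ctrl (238 CPM per kb) and Col1a1 in Vcam1KO1 (1438 CPM per kb) and Vcam1KO2 (798 CPM per kb), with Col6a1 second in each group (193, 924 and 647 CPM per kb).

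**Figure D3:**
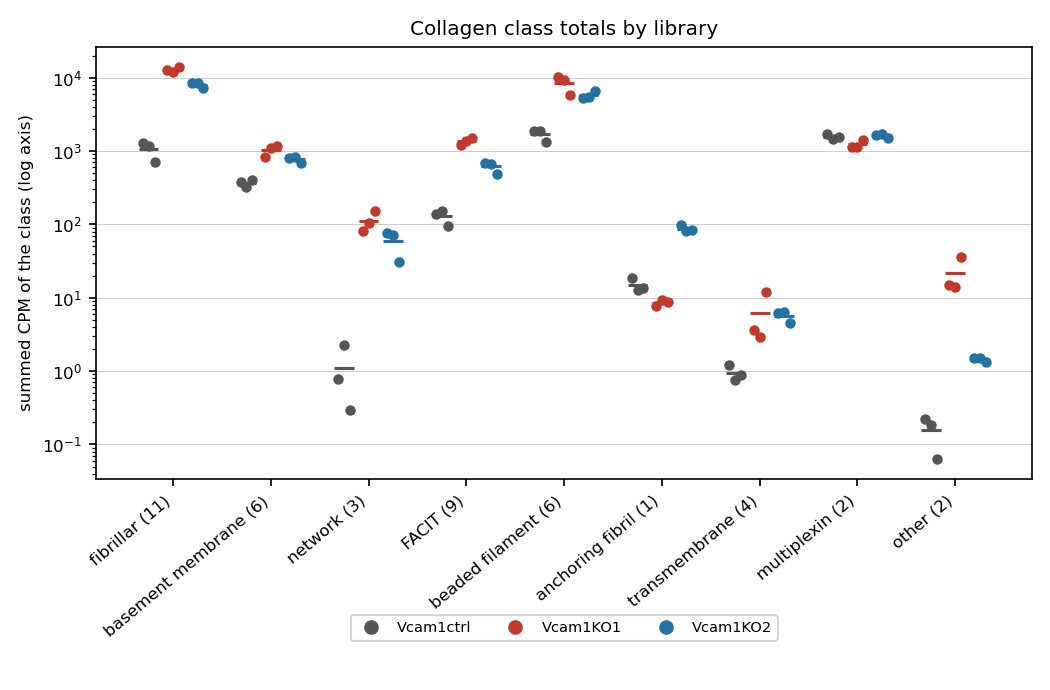
Summed CPM of each collagen class (log axis, number of member genes in brackets) in the 3 libraries of each group, with a line at the group mean. Fibrillar, network and FACIT totals of both clones lie above all control libraries, while multiplexin totals of the 3 groups lie near each other at 1147 to 1726 CPM.

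Type I collagen, the main fibre of scar tissue, is made of chains from Col1a1 and Col1a2, and the 2 genes moved unequally. Col1a1 (chromosome 11, 94936224 to 94953042, plus strand, GRCm38) stood at 107, 136 and 54.9 CPM in the Vcam1ctrl libraries, 8607, 7780 and 9204 CPM in Vcam1KO1 and 5008, 4998 and 4199 CPM in Vcam1KO2. All 6 clone libraries lay above all control libraries. The pooled log2 fold change was 6.06 (SE 0.48, adjusted p = 1.4e-05), or 66.7-fold. Col1a2 (chromosome 6, 4504814 to 4541544, plus strand) stood at 570, 395 and 259 CPM in Vcam1ctrl, 703, 839 and 446 CPM in Vcam1KO1 and 1597, 1582 and 1197 CPM in Vcam1KO2. The Vcam1KO1 and control libraries overlapped, and those of Vcam1KO2 lay above both. Its log2 fold change was 1.84 in Vcam1KO2 (SE 0.31, adjusted p = 0.00092) and 0.70 in Vcam1KO1 (SE 0.31, adjusted p = 0.073), which passed without Vcam1KO1 replicate 3 (0.92, adjusted p = 0.021) or without Vcam1ctrl replicate 1 (1.01, adjusted p = 0.023). The pooled call for Col1a2 (1.38, adjusted p = 0.031) was lost without Vcam1ctrl replicate 2 or 3 (adjusted p = 0.11 and 0.12) and without Vcam1KO2 replicate 1, 2 or 3 (0.058, 0.051 and 0.055).

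Per kb of transcript, the ratio of Col1a1 to Col1a2 was 0.170, 0.310 and 0.192 in Vcam1ctrl, 11.0, 8.37 and 18.6 in Vcam1KO1 and 2.83, 2.85 and 3.16 in Vcam1KO2. Control cells thus held more Col1a2 than Col1a1 mRNA and both clones the reverse. The usual type I trimer takes a pair of Col1a1 chains for each Col1a2 chain. Between the clones, Col1a1 was lower and Col1a2 higher in Vcam1KO2 (log2 difference -0.85, SE 0.28, adjusted p = 0.039, and 1.14, SE 0.31, adjusted p = 0.017). The Col1a1 difference lost its call in 8 of 16 alternative analyses, among them limma-voom (adjusted p = 0.076) and the loss of any clone library or of Vcam1ctrl replicate 1, with adjusted p up to 0.12, and the Col1a2 difference lost it without Vcam1KO2 replicate 2 (1.08, adjusted p = 0.054).

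**Figure D4:**
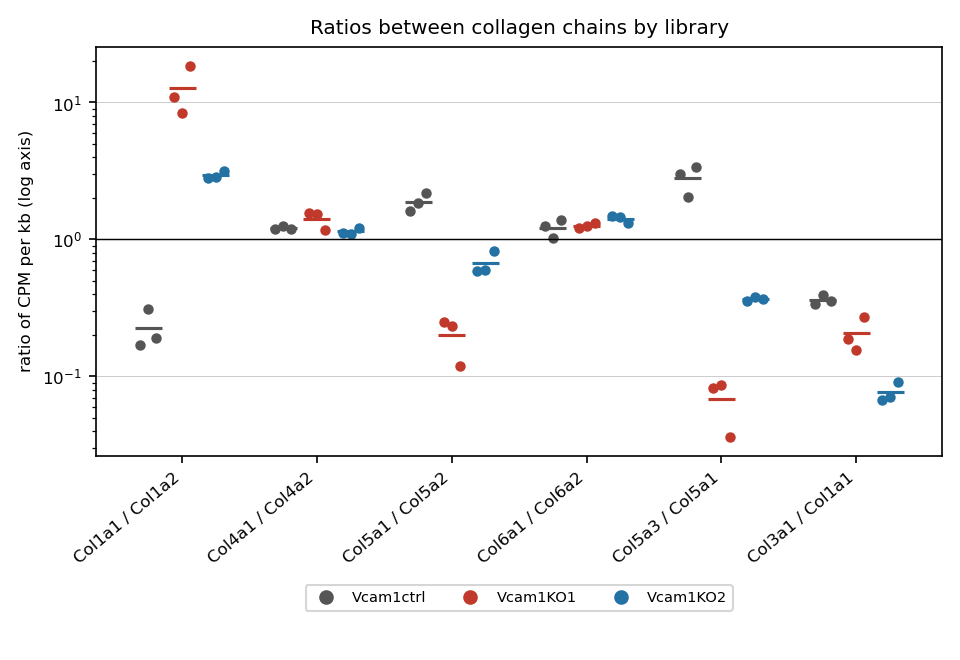
Ratios of CPM per kb between pairs of collagen genes (log axis) in each library, with a line at the group mean and at a ratio of 1. Col1a1 to Col1a2 lies below 1 in control and above 1 in clone libraries, Col5a1 to Col5a2 and Col5a3 to Col5a1 do the opposite, and Col4a1 to Col4a2 and Col6a1 to Col6a2 stay between 1.02 and 1.55.

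Promoters of 2 fibrillar genes that moved by different amounts, Col1a2 and Col3a1, are shown from 250 bases before to 50 after the RefSeq start (GRCm38.p6, both plus strand). Col1a2 spans chr6:4505368-4505667 and Col3a1 chr1:45311288-45311587. Capitals mark the motifs found on either strand among CCAAT (reverse ATTGG), the GC box GGGCGG (reverse CCGCCC), the E-box CAGGTG (reverse CACCTG) and the TATA sequence TATAAA (reverse TTTATA), none of which overlap here. The RefSeq start of Col1a2 lies 125 bases from the start of the GENCODE transcript used for lengths.
Col1a2: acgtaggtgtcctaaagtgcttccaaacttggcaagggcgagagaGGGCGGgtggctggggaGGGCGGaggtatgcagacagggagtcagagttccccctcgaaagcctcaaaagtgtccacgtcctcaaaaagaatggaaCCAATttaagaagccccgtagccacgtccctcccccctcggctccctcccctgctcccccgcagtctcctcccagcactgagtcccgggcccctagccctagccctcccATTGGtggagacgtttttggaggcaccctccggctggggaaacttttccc
Col3a1: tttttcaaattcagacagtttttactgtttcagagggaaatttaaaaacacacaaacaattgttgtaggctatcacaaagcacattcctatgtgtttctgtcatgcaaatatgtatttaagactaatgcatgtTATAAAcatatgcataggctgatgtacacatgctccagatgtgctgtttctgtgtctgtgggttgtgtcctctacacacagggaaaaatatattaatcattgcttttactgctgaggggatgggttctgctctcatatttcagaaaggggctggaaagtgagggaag
The Col1a2 window held CCAAT on both strands and the GC box at 2 places, and the Col3a1 window held only the TATA sequence. Promoters of 35 of the 44 collagens were in the RefSeq table, and Col1a1 was not matched. The GC box was in 21 of these 35 windows (60.0%) and in 35.7% of all 32851 promoters, CCAAT in 31.4% against 37.4%, CAGGTG in 14.3% against 20.2% and TATAAA in 14.3% against 13.6%. These matches are letters in a window and were not tied to the expression values.

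Col3a1, the type III chain that is laid down with type I, and Col5a2, a type V chain that seeds fibres, lie end to end on chromosome 1 (45311538 to 45349706, plus strand, and 45374321 to 45503282, minus strand) with 24614 bases between them. Col3a1 stood at 33.8, 50.4 and 18.3 CPM in Vcam1ctrl, 1527, 1138 and 2361 CPM in Vcam1KO1 and 318, 330 and 359 CPM in Vcam1KO2. Col5a2 stood at 63.7, 75.1 and 24.9 CPM, then 1517, 1628 and 1799 CPM, then 807, 797 and 594 CPM. For both genes the 3 groups did not overlap, with Vcam1KO1 highest and Vcam1ctrl lowest. The log2 fold changes of Col3a1 were 5.62 in Vcam1KO1 (SE 0.43, adjusted p = 4.4e-06) and 3.30 in Vcam1KO2 (SE 0.38, adjusted p = 8.3e-05), and the clones differed by -2.32 (SE 0.37, adjusted p = 0.0013). Those of Col5a2 were 4.92 (SE 0.39, adjusted p = 6.1e-06) and 3.75 (SE 0.37, adjusted p = 3.1e-05). The clone difference of Col5a2, -1.17 (adjusted p = 0.023), was lost without Vcam1KO2 replicate 1, 2 or 3 (adjusted p = 0.052, 0.058 and 0.081).

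The other type V chains moved less or the other way. Col5a1, partner of Col5a2, stood at 129, 175 and 69.6 CPM in Vcam1ctrl, 479, 484 and 273 CPM in Vcam1KO1 and 599, 602 and 620 CPM in Vcam1KO2, and all clone libraries lay above all control libraries. It was higher in both clones, with log2 fold changes of 1.73 (SE 0.32, adjusted p = 0.0013) and 2.29 (SE 0.33, adjusted p = 0.00033). The ratio of Col5a1 to Col5a2 per kb fell from 1.88 ± 0.305 in Vcam1ctrl to 0.201 ± 0.071 in Vcam1KO1 and 0.668 ± 0.134 in Vcam1KO2 (SD, n = 3), with no overlap between groups. Col5a3, the type V chain of narrower distribution, was the most abundant type V gene per kb in Vcam1ctrl at 38.9 CPM per kb. It stood at 282, 261 and 170 CPM in Vcam1ctrl, 28.8, 30.6 and 7.17 CPM in Vcam1KO1 and 154, 167 and 167 CPM in Vcam1KO2. It was lower in Vcam1KO1 by a log2 fold change of -3.42 (SE 0.48, adjusted p = 0.00021). In Vcam1KO2 its value was -0.55 (SE 0.43, adjusted p = 0.32), which passed without Vcam1KO1 replicate 3 (adjusted p = 0.024) and in a fit of the 6 libraries of Vcam1KO2 and Vcam1ctrl (0.034). The clones differed by 2.87 (SE 0.46, adjusted p = 0.0014). The pooled value of Col5a3, -1.37 (adjusted p = 0.2), passed as an average of the 2 clone contrasts (-1.99, adjusted p = 0.0011).

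Col27a1, a fibrillar gene known from cartilage, was lower in both clones. It stood at 109, 76.9 and 107 CPM in Vcam1ctrl, 17.2, 19.1 and 49.8 CPM in Vcam1KO1 and 9.05, 7.47 and 11.1 CPM in Vcam1KO2, so that the 3 groups did not overlap. The log2 fold changes were -1.77 (SE 0.38, adjusted p = 0.0029) and -3.41 (SE 0.41, adjusted p = 0.0001), and the clones differed by -1.64 (adjusted p = 0.0085). Without Vcam1KO1 replicate 3, its highest clone library, the value in Vcam1KO1 was -2.42 (adjusted p = 1.9e-05) and the clone difference -0.98 (adjusted p = 0.0053).

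The type II and type XI chains, which form cartilage fibres, were measured at low levels, apart from Col11a2 in Vcam1KO1 replicate 3. Col11a2 stood at 5.41, 1.94 and 4.35 CPM in Vcam1ctrl, 7.65, 9.21 and 23.5 CPM in Vcam1KO1 and 6.24, 4.99 and 3.50 CPM in Vcam1KO2, and was higher in Vcam1KO1 (log2 fold change 1.78, SE 0.49, adjusted p = 0.011, and 1.11, adjusted p = 0.037, without replicate 3). In Vcam1KO2 its value was 0.32 (adjusted p = 0.61). Its clone difference (-1.45, adjusted p = 0.042) was lost without Vcam1KO1 replicate 3 (-0.78, adjusted p = 0.16), without Vcam1ctrl replicate 3 (adjusted p = 0.056), without Vcam1KO2 replicate 1, 2 or 3 (adjusted p = 0.069, 0.11 and 0.14) and in limma-voom (adjusted p = 0.063). Its partners Col2a1 and Col11a1 stayed below 2.31 CPM in every library. Col2a1 was higher in Vcam1KO1 (3.14, SE 0.33, adjusted p = 3.3e-05). Col11a1 had 57, 67 and 135 counts in Vcam1KO1, 80, 33 and 15 in Vcam1ctrl and 0, 1 and 0 in Vcam1KO2, where the mean was 97.3 times lower than in Vcam1ctrl (95% counting interval 17.2 to 3873). Col24a1 had at most 15 counts in any library.

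The basement membrane collagens are the 6 chains of type IV, and their genes lie as 3 head-to-head pairs whose members are read in opposite directions. Col4a1 and Col4a2 on chromosome 8 overlap by 22 bases at their starts, Col4a4 and Col4a3 on chromosome 1 are 71 bases apart, and Col4a6 and Col4a5 on chromosome X are 1308 bases apart, in the GENCODE annotation. Col4a1 and Col4a2 make the trimer found in nearly every basement membrane, Col4a3, Col4a4 and Col4a5 one of specialised membranes such as that of the kidney glomerulus, and Col4a5 with Col4a6 another form. The 2 shortest stretches between starts are shown because each carries a pair that moved together, with a capital GC box. The Col4a1 and Col4a2 overlap is chr8:11312805-11312826 on the plus strand, and the Col4a4 to Col4a3 stretch is chr1:82586850-82586920 on the minus strand, both read from RefSeq windows on GRCm38.p6.
Col4a1 and Col4a2: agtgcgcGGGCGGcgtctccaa
Col4a4 to Col4a3: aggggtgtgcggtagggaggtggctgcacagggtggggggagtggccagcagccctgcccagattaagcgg
The first stretch held the GC box and the second held none of the 4 motifs.

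Col4a1 stood at 154, 140 and 165 CPM in Vcam1ctrl, 487, 658 and 610 CPM in Vcam1KO1 and 393, 406 and 357 CPM in Vcam1KO2. Col4a2 stood at 126, 108 and 135 CPM, then 306, 419 and 505 CPM, then 343, 359 and 288 CPM. For both genes all 6 clone libraries lay above all control libraries. The pooled log2 fold changes were 1.66 for Col4a1 (SE 0.23, adjusted p = 0.00039) and 1.59 for Col4a2 (SE 0.20, adjusted p = 0.00024), or 3.17-fold and 3-fold. The ratio of Col4a1 to Col4a2 per kb was 1.21 ± 0.0381 in Vcam1ctrl, 1.42 ± 0.211 in Vcam1KO1 and 1.14 ± 0.0577 in Vcam1KO2 (SD, n = 3). Between the clones, Col4a1 was lower in Vcam1KO2 (-0.60, SE 0.14, adjusted p = 0.0078) and Col4a2 did not pass (-0.31, SE 0.18, adjusted p = 0.21).

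The second pair went down. Col4a3 stood at 56.9, 38.7 and 65.0 CPM in Vcam1ctrl, 0.674, 1.07 and 1.84 CPM in Vcam1KO1 and 0.771, 0.665 and 0.0592 CPM in Vcam1KO2. Col4a4 stood at 42.5, 31.2 and 39.8 CPM, then 0.689, 0.543 and 2.39 CPM, then 0.805, 0.735 and 0.163 CPM. For both genes no clone library passed 2.39 CPM and no control library was under 31.2 CPM. The pooled log2 fold changes were -5.98 (SE 0.68, adjusted p = 0.00011) for Col4a3 and -5.42 (SE 0.63, adjusted p = 0.00013) for Col4a4, the latter -6.03 without Vcam1KO1 replicate 3. The clones differed from each other by -1.26 (SE 0.63, adjusted p = 0.14) and -1.07 (SE 0.64, adjusted p = 0.21), neither past the threshold.

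The third pair was low in Vcam1ctrl. Col4a6 stood at 1.82, 4.93 and 0.746 CPM in Vcam1ctrl, 31.6, 29.3 and 35.3 CPM in Vcam1KO1 and 63.8, 64.0 and 45.5 CPM in Vcam1KO2, with no overlap among the 3 groups. Its pooled log2 fold change was 4.18 (SE 0.63, adjusted p = 0.00068), and 5.07 without Vcam1ctrl replicate 2. The clone difference of 0.85 (SE 0.49, adjusted p = 0.20) passed without Vcam1ctrl replicate 2 (adjusted p = 0.031), in limma-voom (0.038) and in a fit of the clone libraries alone (0.0055). Its neighbour Col4a5 had 0 counts in all control libraries, 24, 20 and 15 counts in Vcam1KO1 and 15, 30 and 7 in Vcam1KO2. Against a limit of 3 counts per control library its mean was at least 6.79-fold higher in the clones, although it never passed 0.424 CPM. Its call held (adjusted p = 0.00062) but was favoured by the filter, which Col4a5 passed through the clones alone. By group mean, Col4a5 was the lowest type IV gene in all 3 groups.

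**Figure D5:**
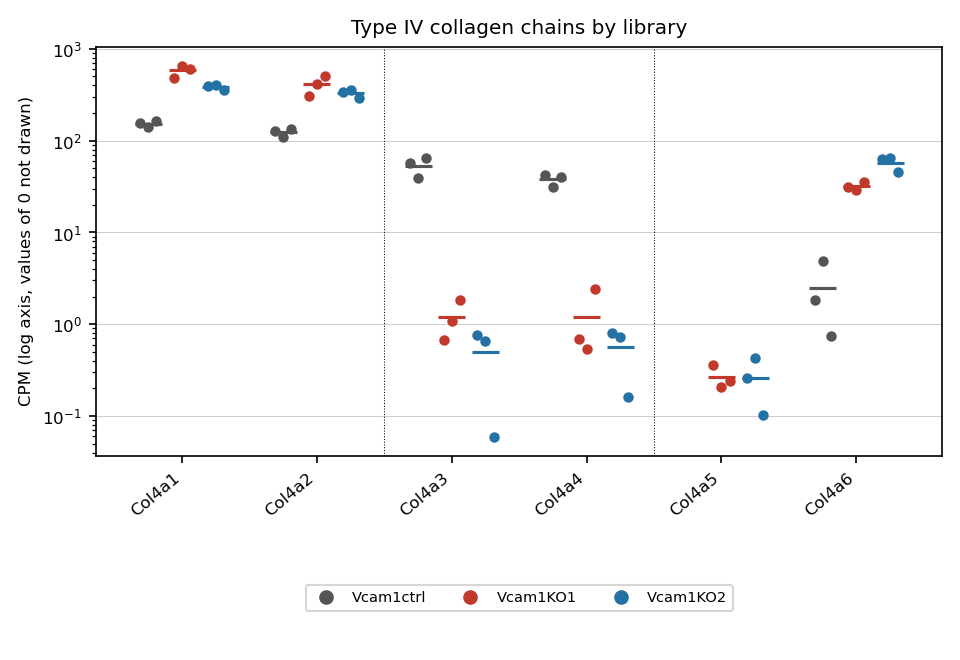
CPM of the 6 type IV collagen genes (log axis, values of 0 not drawn) in the 3 libraries of each group, with a line at the mean; dotted lines separate the head-to-head pairs. Col4a1 and Col4a2 are higher, Col4a3 and Col4a4 lower and Col4a6 higher in both clones, and Col4a5 has no control value.

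Among the network collagens Col8a1 alone was expressed. Type VIII collagen forms hexagonal meshes below endothelia and in remodelling vessels. Col8a1 stood at 0.725, 2.25 and 0.228 CPM in Vcam1ctrl, 81.3, 104 and 150 CPM in Vcam1KO1 and 76.0, 72.1 and 30.5 CPM in Vcam1KO2, all clone libraries above all control libraries. The pooled log2 fold change was 6.36 (SE 0.86, adjusted p = 0.00035), and 7.40 without Vcam1ctrl replicate 2. Its partner Col8a2 had at most 14 counts in any library, and Col10a1, known from growth plate cartilage, had 25 counts in Vcam1KO1 replicate 3 and at most 3 elsewhere.

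FACIT genes higher in the clones were led by Col12a1, whose product binds type I fibres. It stood at 12.6, 11.5 and 13.7 CPM in Vcam1ctrl, 957, 1082 and 1253 CPM in Vcam1KO1 and 531, 499 and 305 CPM in Vcam1KO2. The 3 groups did not overlap. The log2 fold changes were 6.44 in Vcam1KO1 (SE 0.26, adjusted p = 1.2e-07) and 5.14 in Vcam1KO2 (SE 0.25, adjusted p = 4.2e-07), and the clones differed by -1.30 (SE 0.21, adjusted p = 0.0013). Col16a1, another fibre-associated gene, stood at 122, 139 and 76.9 CPM in Vcam1ctrl, 257, 286 and 216 CPM in Vcam1KO1 and 160, 166 and 172 CPM in Vcam1KO2. It changed far less. Its log2 fold change of 1.17 in Vcam1KO1 (SE 0.20, adjusted p = 0.00086) held in all 16 alternatives. The call in Vcam1KO2 (0.56, SE 0.20, adjusted p = 0.042) was lost in 7 of 16 alternatives, with adjusted p up to 0.099: with upper-quartile factors and without Vcam1ctrl replicate 1 or 3, Vcam1KO1 replicate 1 or Vcam1KO2 replicate 1, 2 or 3. The pooled call (0.90, adjusted p = 0.02) was lost without Vcam1ctrl replicate 1 or 3 (adjusted p = 0.054 and 0.079), and the clone difference (-0.61, adjusted p = 0.039) in 6 of 16, without Vcam1ctrl replicate 1, Vcam1KO1 replicate 1 or 2 or any Vcam1KO2 library.

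Type IX collagen, a FACIT of cartilage, is made from Col9a1, Col9a2 and Col9a3, and Col9a1 and Col9a2 rose in Vcam1KO1. Col9a1 had 91, 100 and 920 counts in Vcam1KO1 (1.36, 1.04 and 14.7 CPM) and 0 counts in all Vcam1ctrl and Vcam1KO2 libraries, at least 146-fold higher than in Vcam1ctrl at a limit of 3 counts per library. Without Vcam1KO1 replicate 3 that bound was 30.8-fold. Col9a2 had 106, 195 and 685 counts in Vcam1KO1, 6, 1 and 0 in Vcam1ctrl and 0 in Vcam1KO2. Replicate 3 was the highest Vcam1KO1 library for both, and the calls against Vcam1ctrl (adjusted p = 0.0068 and 0.001) held without it. Both genes passed the filter through Vcam1KO1 alone, so the filter favoured these calls. The summed level of 5 cartilage markers moved the same way, at 5.20 to 18.0 CPM in Vcam1KO1 with replicate 3 highest, 0.185 to 0.405 CPM in Vcam1ctrl and 0.523 to 0.666 CPM in Vcam1KO2, mostly from Comp, and the part of this in the result was not tested. Acan and Matn1, which define cartilage, were at or below 0.0209 CPM in every clone library. Col9a3 had signal in every group, at 1.20 to 2.02 CPM in Vcam1ctrl, 1.10 to 3.24 CPM in Vcam1KO1 and 2.74 to 3.39 CPM in Vcam1KO2, all above control, and did not pass in Vcam1KO2 (1.07, SE 0.41, adjusted p = 0.052). Col20a1 and Col22a1 stayed at or below 4.07 CPM. Col22a1 was higher in both clones (1.25, adjusted p = 0.0046, and 2.91, adjusted p = 3.8e-05), a pooled call (2.32, adjusted p = 0.012) that was lost without Vcam1ctrl replicate 2 or 3 (adjusted p = 0.056 and 0.054). Col20a1 was lower in Vcam1KO2 (-2.33, adjusted p = 0.016), which was lost without Vcam1ctrl replicate 3 or Vcam1KO2 replicate 2 or 3 (adjusted p = 0.06, 0.054 and 0.054).

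The beaded filament genes make type VI collagen, a pericellular meshwork whose classical trimer joins Col6a1, Col6a2 and Col6a3. Col6a1 stood at 890, 822 and 666 CPM in Vcam1ctrl, 4557, 4150 and 2653 CPM in Vcam1KO1 and 2519, 2626 and 2809 CPM in Vcam1KO2. Col6a2 stood at 687, 775 and 461 CPM, then 3612, 3177 and 1947 CPM, then 1634, 1743 and 2071 CPM, and Col6a3 at 301, 306 and 195 CPM, then 1995, 1892 and 1126 CPM, then 1065, 1102 and 1665 CPM. For all 3 genes every clone library lay above every control library, and replicate 3 of Vcam1KO1 was the lowest of its group. The pooled log2 fold changes were 2.02 (SE 0.26, adjusted p = 0.00027), 1.88 (SE 0.33, adjusted p = 0.0015) and 2.46 (SE 0.30, adjusted p = 0.00019). The ratio of Col6a1 to Col6a2 per kb was 1.22 ± 0.187 in Vcam1ctrl, 1.26 ± 0.0488 in Vcam1KO1 and 1.41 ± 0.0949 in Vcam1KO2 (SD, n = 3), so the neighbouring genes on chromosome 10 kept close proportions. Between the clones none of the 3 passed (adjusted p = 0.077, 0.063 and 0.29). Without Vcam1KO1 replicate 3, Col6a1 (-0.72, adjusted p = 0.0048) and Col6a2 (-0.90, adjusted p = 0.01) passed. Col6a1 also passed in DESeq2 (adjusted p = 0.049), and Col6a2 also passed without Vcam1ctrl replicate 3 (-0.67, adjusted p = 0.046), in DESeq2 (0.034), with upper-quartile factors (0.046) and with other filters (0.048 and 0.049).

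The alternative type VI genes Col6a4, Col6a5 and Col6a6 lie on 1 strand of chromosome 9, and Col6a4 and Col6a5 were higher in Vcam1KO2. Col6a5 (105856078 to 105960643, minus strand) had 705, 915 and 1157 counts in Vcam1KO2 (12.1, 12.9 and 17.1 CPM), 5, 1 and 5 in Vcam1KO1 and 0, 0 and 1 in Vcam1ctrl. The log2 difference between the clones was 8.07 (SE 0.53, adjusted p = 9.6e-06). Col6a5 passed the filter through Vcam1KO2 alone, so the filter favoured this call. Against 1 control count in all, the ratio was 3653 with a 95% counting interval of 655 to 144346. Its pooled call was lost without Vcam1ctrl replicate 1, 2 or 3 (adjusted p = 0.099, 0.09 and 0.099) and in limma-voom (0.24), and its call in Vcam1KO1 (3.23, adjusted p = 0.022) was lost without Vcam1ctrl replicate 1 or 2 or Vcam1KO1 replicate 1 or 3 (adjusted p = 0.093, 0.057, 0.069 and 0.064). Col6a4, next to it, had 69, 57 and 61 counts in Vcam1KO2 and at most 3 in any other library. Col6a6 had 2, 7 and 12 counts in Vcam1KO2 and at most 2 elsewhere, too few to test.

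Col7a1, the anchoring fibril collagen that ties epithelium to stroma, was lower in one clone and higher in the other. It stood at 18.4, 12.7 and 13.6 CPM in Vcam1ctrl, 7.65, 9.29 and 8.76 CPM in Vcam1KO1 and 96.9, 81.4 and 82.9 CPM in Vcam1KO2. The 3 groups did not overlap. The log2 fold changes were -0.80 in Vcam1KO1 (SE 0.16, adjusted p = 0.002) and 2.55 in Vcam1KO2 (SE 0.17, adjusted p = 2.3e-06), and the clones differed by 3.34 (SE 0.17, adjusted p = 2.9e-06). The pooled value, 1.68 (SE 0.95, adjusted p = 0.18), mixes these directions, and the average of the 2 clone contrasts was 0.87 (adjusted p = 0.00055).

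Transmembrane collagens, which stay on the cell surface, were scarce. Col23a1 stood at 0.119, 0.203 and 0.291 CPM in Vcam1ctrl, 3.20, 2.58 and 11.3 CPM in Vcam1KO1 and 5.35, 5.46 and 3.87 CPM in Vcam1KO2, above control in every clone library. Its pooled log2 fold change was 4.69 (SE 0.63, adjusted p = 0.00033). Col17a1, the hemidesmosome collagen of epithelia, was at or below 0.679 CPM everywhere and was higher in Vcam1KO2 (1.27, adjusted p = 0.0058). Col13a1 was at or below 0.677 CPM and lower in the clones together (-2.58, adjusted p = 0.0071), a call lost without Vcam1ctrl replicate 1 (-2.05, adjusted p = 0.051). Its call in Vcam1KO2 (-2.29, adjusted p = 0.017) was lost without Vcam1ctrl replicate 1 or Vcam1KO2 replicate 2 or 3 (adjusted p = 0.08, 0.059 and 0.058). Col13a1 passed the filter through Vcam1ctrl alone, so the filter favoured both calls. Col25a1 had at most 17 counts.

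The multiplexins, basement membrane proteoglycans whose C-terminal fragments include endostatin, were divided. Col18a1 stood at 1466, 1177 and 1350 CPM in Vcam1ctrl, 1145, 1147 and 1435 CPM in Vcam1KO1 and 1632, 1724 and 1501 CPM in Vcam1KO2, with overlap between Vcam1KO1 and control. The log2 fold change was -0.10 in Vcam1KO1 (SE 0.14, adjusted p = 0.58) and 0.28 in Vcam1KO2 (SE 0.14, adjusted p = 0.13). The clone difference of 0.38 (adjusted p = 0.062) passed without Vcam1KO1 replicate 3 (0.50, adjusted p = 0.016) and Vcam1ctrl replicate 2 (0.43, adjusted p = 0.031) in turn, in limma-voom (adjusted p = 0.046) and in DESeq2 (0.026). Col15a1 (chromosome 4, 47208161 to 47313167, plus strand) stood at 255, 261 and 187 CPM in Vcam1ctrl, 1.81, 0.803 and 0.415 CPM in Vcam1KO1 and 1.46, 1.55 and 2.29 CPM in Vcam1KO2. No clone library passed 2.29 CPM, and the pooled log2 fold change of -7.40 (SE 0.46, adjusted p = 3.9e-06) was the largest decrease among the 37 collagens tested in that comparison. Of the 2 other genes, Col28a1 had 5, 0 and 0 counts in Vcam1ctrl, 939, 1305 and 2232 in Vcam1KO1 and 79, 100 and 73 in Vcam1KO2, or 14.1, 13.6 and 35.6 CPM in Vcam1KO1 and 1.08 to 1.41 CPM in Vcam1KO2. The clones differed by -4.04 (SE 0.50, adjusted p = 0.00034). Col26a1 stayed at or below 0.846 CPM and was higher in Vcam1KO1 (2.26, adjusted p = 0.0022).

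Set side by side, 18 collagens were higher in both clones and 5 lower in both (Col13a1, Col15a1, Col27a1, Col4a3 and Col4a4). The 18 include Col4a5 and Col28a1, which passed the filter through the clones alone, and Col6a5, which passed through Vcam1KO2 alone. Col13a1 passed through Vcam1ctrl alone. Col7a1 was called in opposite directions, and 11 were called in 1 clone alone: Col2a1, Col9a1, Col9a2, Col11a2 and Col26a1 (higher) and Col5a3 (lower) in Vcam1KO1, and Col1a2, Col6a4 and Col17a1 (higher) and Col11a1 and Col20a1 (lower) in Vcam1KO2. Among the 11, Col9a1 and Col9a2 passed the filter through Vcam1KO1 alone and Col6a4 through Vcam1KO2 alone. Col11a1 passed it without any Vcam1KO2 library. The filter thus favoured the calls of these genes in 1 clone. Tested directly, Vcam1KO2 had 7 collagens higher and 15 lower than Vcam1KO1, where 18.5% of all genes were higher and 20.2% lower. The median log2 difference was -0.60 against -0.04. By class, 7 of 10 tested fibrillar and 5 of 7 tested FACIT genes were lower in Vcam1KO2, and 2 of 5 tested beaded filament genes were higher. The FACIT count includes Col9a1 and Col9a2, which passed the filter through Vcam1KO1 alone. Both beaded filament genes, Col6a4 and Col6a5, passed it through Vcam1KO2 alone. These 4 genes had to differ between the clones, so their calls are no result about a class. The fibrillar count includes Col2a1 and Col11a1, which passed through Vcam1ctrl and Vcam1KO1 without any Vcam1KO2 library. For them the filter favoured a lower value in Vcam1KO2, so the fibrillar count is not read as a result about the class. The counts over all collagens include these genes as well. With 1 library left out in turn the number called lay between 16 and 24, and without Vcam1KO1 replicate 3 it was 23.

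Of 31 genes that modify, cut and crosslink collagen, 30 were tested. In the pooled comparison 17 were higher and 1 lower, beside 21.7% and 21.2% of all tested genes. Their median log2 fold change was 1.38. The 17 include Adamts3 and Tll1, at most 0.0885 and 0.104 CPM in control libraries, under the filter limit of 0.152 CPM. Both passed the filter through the clones alone, so it favoured their calls. Lox, which crosslinks collagen, stood at 0.629, 1.11 and 0.455 CPM in Vcam1ctrl, 845, 1113 and 703 CPM in Vcam1KO1 and 533, 497 and 432 CPM in Vcam1KO2, and the groups did not overlap (log2 fold change 9.89, SE 0.58, adjusted p = 2.8e-06). Serpinh1, the collagen chaperone of the endoplasmic reticulum, stood at 289, 386 and 121 CPM, then 1433, 1461 and 1262 CPM, then 1920, 2067 and 1921 CPM (2.66, SE 0.37, adjusted p = 0.00042). The propeptide proteases were higher too, Bmp1 by 2.65 (SE 0.19, adjusted p = 6.9e-06) and Adamts2 by 5.20 (SE 0.61, adjusted p = 0.00014). The prolyl hydroxylase P4ha1 was higher by 0.64 (SE 0.19, adjusted p = 0.023). The lysyl hydroxylase Plod2 did not pass in the pooled comparison (0.64, SE 0.35, adjusted p = 0.16) or in Vcam1KO1 (-0.03, adjusted p = 0.87) and was higher in Vcam1KO2 (1.10, SE 0.13, adjusted p = 0.00011). The 1 lower gene was P3h4, a partner of the hydroxylases, named after its values were seen, at 72.8, 74.8 and 109 CPM in Vcam1ctrl and at most 0.180 CPM in any clone library.

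Of 12 collagen receptors, 10 were tested, and 4 were higher and 3 lower in the pooled comparison, where 21.7% of all genes were higher and 21.2% lower. With so few members these counts are no result about receptors as a group, and single genes are given. Itga2, the integrin subunit of epithelia that binds type I collagen, stood at 332, 407 and 378 CPM in Vcam1ctrl, 3.97, 2.05 and 10.6 CPM in Vcam1KO1 and 11.0, 10.2 and 4.11 CPM in Vcam1KO2 (log2 fold change -5.74, SE 0.52, adjusted p = 2.9e-05). Itga1, which prefers type IV collagen, was lower by a log2 fold change of -0.98 (SE 0.22, adjusted p = 0.0058). Ddr2, a receptor kinase for fibrillar collagen, was higher (2.70, SE 0.31, adjusted p = 0.00012), while Ddr1, its epithelial relative, did not pass (0.28, SE 0.18, adjusted p = 0.25). Itga11, an integrin subunit of fibroblasts, was higher (4.07, SE 1.06, adjusted p = 0.012). It reached 1.89 to 2.53 CPM in Vcam1KO2 and at most 0.449 CPM in Vcam1KO1. Control libraries held at most 0.112 CPM, under the filter limit of 0.152 CPM, so the filter favoured this call.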

How the data were processed

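Messenger RNA of 9 libraries, 3 per group, was read by the authors as stranded read pairs. The authors pseudoaligned the reads with kallisto 0.46.1 to the GENCODE vM24 transcripts of GRCm38 (mm10), and the deposited values are estimated counts (expected counts) per gene symbol without normalization. The step that summed transcripts to genes is not given in the sources used here. All 55276 symbols had a name, 0 values were not whole and 0 columns were left out. The libraries are called replicates 1 to 3 in accession order. They come from passages of the control cells and of 2 clones, so p-values measure the spread between these libraries, which may be technical, and not between independent clones.

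Library totals were 53415907 to 125223073 counts, and 3 counts per library was taken as the limit for genes at 0. Ratios against 1 to 3 counts have an exact 95% counting interval (scipy 1.17.1), which covers counting error only. In R 4.3.3, edgeR 4.0.16 supplied the TMM scaling and the filterByExpr filter, which left 17672 genes. Clones pooled against control were fitted in 2 groups, and single clones and their difference in 3 groups over 9 libraries, with the quasi-likelihood test and Benjamini-Hochberg adjustment. The study's own test, limma-voom (limma 3.58.1), and DESeq2 1.42.0, RLE and upper-quartile factors, other filters, a fold minimum of 2, 6 libraries alone, the average of the clones' contrasts and leaving out each library were the alternatives. The fitting code was tested on simulated data.

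Values per kb use 1 GENCODE vM21 transcript per gene, that with the longest coding sequence, and positions are from that release, which is not the one used for the counts but is on the same build. Promoters are from RefSeq (GRCm38.p6). Levels are given per library for collagens with a group mean of at least 10 CPM and for their trimer partners and neighbours, and otherwise as ranges or counts. Of the processing and receptor genes, Serpinh1, P4ha1, Plod2, Lox, Bmp1, Adamts2, Itga1, Itga2, Itga11, Ddr1 and Ddr2 were to be named whatever their values. Ratios of Col5a3 to Col5a1 and of Col3a1 to Col1a1 were added after the data were seen. The members and lists were chosen with earlier results of these data known. Figures were drawn with matplotlib 3.10.9.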

Additional observations from a re-analysis of the deposited data

Results flagged for a closer look

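The effect against Vcam1ctrl differed between the clones for 13 of the 24 collagens described by level, by the direct test of Vcam1KO2 against Vcam1KO1 in edgeR with Benjamini-Hochberg adjustment. Of all tested genes, 18.5% were higher and 20.2% lower in Vcam1KO2 by the same test. The 24 were chosen by a mean of at least 10 CPM in any group. That choice favours genes high in 1 clone alone, such as Col6a5 and Col28a1, so the count of 13 cannot be weighed against these shares. Groups of 3 libraries are too small to look for single outlying libraries in this way. Fibrillar genes made up 7 of the 13. The log2 difference, Vcam1KO2 minus Vcam1KO1, was -0.85 for Col1a1, -2.32 for Col3a1, -1.17 for Col5a2, -1.45 for Col11a2 and -1.64 for Col27a1, all lower in Vcam1KO2, and 1.14 for Col1a2 and 2.87 for Col5a3, both higher. Col4a1 differed by -0.60, the only type IV gene past the threshold in this comparison. The FACIT genes Col12a1 and Col16a1 differed by -1.30 and -0.61. The widest differences were 8.07 for Col6a5, -4.04 for Col28a1 and 3.34 for Col7a1. Calls for Col1a1, Col1a2, Col5a2, Col11a2 and Col16a1 were lost under at least 1 alternative, and those of the other 8 held under every alternative run.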

How the results depend on the processing

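Of 125 results for single genes, 99 kept their direction and their side of the threshold under every alternative run and 26 did not in at least 1. Over 1977 values, 60 lost a call, 22 gained one and 2 turned in direction, both for genes past no threshold: Col18a1 in the pooled comparison (-0.02 without Vcam1ctrl replicate 2, up to 0.17 without replicate 1) and Col11a2 in Vcam1KO2 (-0.02 without Vcam1ctrl replicate 2, up to 0.63 without replicate 1). The number of collagens called was 20 to 24 (pooled), 29 to 31 (Vcam1KO1), 26 to 31 (Vcam1KO2) and 16 to 24 (between clones) with 1 library left out, and 22 to 29, 26 to 31, 24 to 31 and 18 to 24 over the other alternatives. Genes of collagen processing and receptors called were 22 to 27, 26 to 28, 31 to 33 and 16 to 22 with 1 library left out, and between the clones 13 with a fold minimum of 2. The collagen total of Vcam1KO2 was 16452 CPM with upper-quartile factors, beyond the spread of its libraries. No paired analysis was possible because the labels give no replicate numbers. The cause of these shifts was not tested. With 53415907 counts or more in every library, counting error limits only the genes with a few counts.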
